A study of Nannochloropsis oceanica with 6 samples.

Results

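FBA6 (NO19G01750), FBA8 (NO01G03170) and GAPC1 (NO27G00910) are 3 of the 10481 genes in RNA sequencing tables of the oil-storing microalga Nannochloropsis oceanica, strain IMET1. FBA6 and FBA8 are annotated as fructose-bisphosphate aldolases and GAPC1 as a chloroplast glyceraldehyde-3-phosphate dehydrogenase (GAPDH). They were selected by their measured difference between nitrogen-deprived (ND) and nitrogen-replete (NR) cells, so their values in this contrast are given as a description, with no test. Cells in logarithmic growth were washed and moved to f/2 medium without nitrogen (ND) or to complete f/2 medium (NR), with 3 cultures of 800 mL each under continuous light, and collected after 72 h. All 6 cultures came from the same strain and were started at an optical density of 2.5 at the same light level of 50 µmol m-2 s-1. The estimated counts per library summed to between 4383211 and 5693513 in ND and between 3972986 and 4563940 in NR.

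Aldolase and GAPDH act next to each other in the handling of triose phosphates. Aldolase splits fructose-bisphosphate into triose phosphates in glycolysis and joins them again in gluconeogenesis and in the Calvin cycle, which also uses it for sedoheptulose-bisphosphate. GAPDH oxidises glyceraldehyde-3-phosphate in glycolysis, and in plastids the reverse reaction uses the reductant made by photosynthesis to produce the sugar phosphate that leaves the Calvin cycle. Algae with secondary plastids carry several nuclear genes for each enzyme, whose proteins work in the cytosol or the plastid. The tables measure transcripts, not where a protein is located. For FBA6 and FBA8 the closest described proteins are cytosolic aldolases of Arabidopsis thaliana. For GAPC1 the closest is a chloroplast GAPDH of the cryptophyte Guillardia theta, while its deposited ontology terms place it in the cytosol.

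FBA6 was the member with the higher level in ND. Its level was 2009, 2108 and 2230 TPM (a length-scaled share of all transcripts in the library) in ND cultures 1 to 3, against 486, 492 and 510 TPM in NR cultures 1 to 3. Every ND library lay above every NR library, and the mean was 2116 ± 111 TPM in ND and 496 ± 12.8 TPM in NR (SD, n = 3 each), a ratio of 4.27. By mean TPM, FBA6 ranked 16 among all genes in ND and 291 in NR. The counts behind it ran from 4249 to 6147 in ND and from 1003 to 1122 in NR, all whole, with a single transcript model. Under trimmed mean scaling, which sets the typical gene near no change, the fitted log2 fold change was 1.71 ± 0.05 (SE).

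FBA8 moved in the other direction. Its level was 26.7, 24.1 and 17.2 TPM in ND cultures 1 to 3, against 154, 149 and 141 TPM in NR cultures 1 to 3. The ND libraries all lay below the NR libraries, at 22.7 ± 4.93 TPM in ND and 148 ± 6.51 TPM in NR (SD, n = 3 each), and NR was 6.52 times as high. FBA8 ranked 7348 by mean TPM in ND and 1356 in NR. The fitted log2 fold change was -3.10 ± 0.11 (SE). The estimated counts were 105.67, 108.1 and 88.53 in ND, against 660.46, 563.58 and 528.9 in NR, and were not whole, so part of the reads was divided with another gene model.

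That other model was NO01G03180, adjacent by gene ID and also named FBA8. The summed counts of both models were whole in all 6 libraries (within 0.005 counts), with 302, 328 and 416 in ND and 787, 753 and 711 in NR. NO01G03180 had 42.4, 41.4 and 53.0 TPM in ND, against 25.3, 41.6 and 40.5 TPM in NR. Its groups overlapped, and it did not pass the test (log2 fold change -0.01 ± 0.14, edgeR adjusted p = 0.965). NO01G03170 had the higher level of the pair in every NR library, at 4.38 ± 1.47 times NO01G03180, and the lower level in every ND library, at 0.512 ± 0.165 times. Taken as a sum, the pair stood at 68.3 ± 2.42 TPM in ND and 184 ± 5.99 TPM in NR, which is 2.69 times as high in NR in place of 6.52. The size of the FBA8 difference therefore depends on how the shared reads were divided, while both forms were lower in ND.

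**Figure D1:**
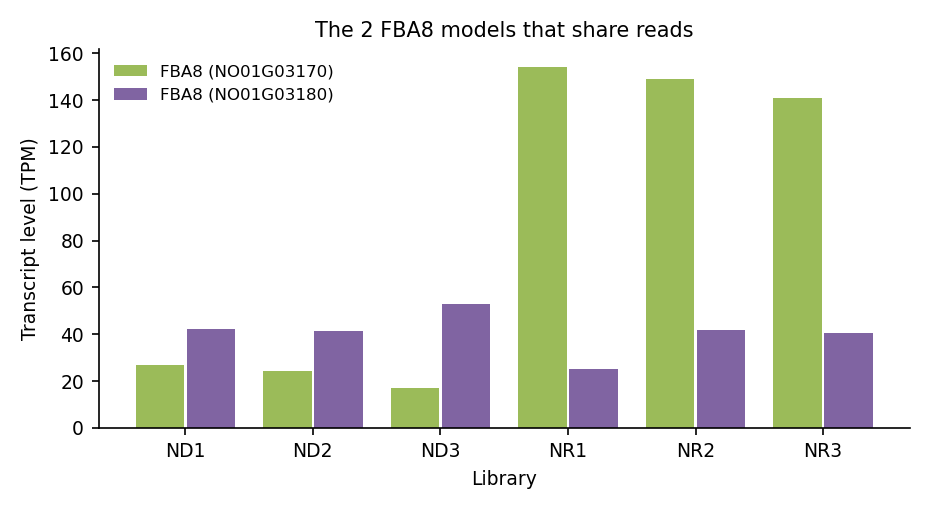
Bars give the level in TPM of the 2 adjacent FBA8 models in each library, ND on the left and NR on the right. NO01G03170 lies between 17.2 and 26.7 TPM in ND and between 141 and 154 TPM in NR, while NO01G03180 stays between 25.3 and 53.0 TPM in all libraries.

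GAPC1 was lower in ND. Its level was 269, 272 and 274 TPM in ND cultures 1 to 3, against 662, 631 and 627 TPM in NR cultures 1 to 3. The ND values lay within a narrow band below every NR value, at 272 ± 2.72 TPM in ND and 640 ± 19.5 TPM in NR (SD, n = 3 each), and NR was 2.36 times as high. The counts were 1469 to 1951 in ND and 3233 to 3913 in NR, all whole, with a single transcript model. The fitted log2 fold change was -1.60 ± 0.05 (SE), and the rank by mean TPM was 660 in ND and 214 in NR.

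The ND and NR libraries of all 3 genes were thus separate in TPM. Among the 9329 genes that passed the filter on low counts, the TPM values of 79.4% did not overlap between ND and NR (57.6% higher in ND and 21.8% lower), and 71.2% passed the edgeR test at 0.05 after adjustment (35.7% higher in ND and 35.5% lower). Since the contrast chose the 3 genes, their count is not set against these shares. On the TPM scale the median log2 ratio of all tested genes was 0.40, against 0.02 under trimmed mean scaling, so a TPM ratio lies above the fitted change by about that shift. The log2 TPM ratio was 2.09 for FBA6, -2.71 for FBA8 and -1.24 for GAPC1. In the authors' deposited table the log2 fold changes were 1.70 for FBA6, -3.11 for FBA8 and -1.62 for GAPC1, and each is of ND over NR.

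**Figure D2:**
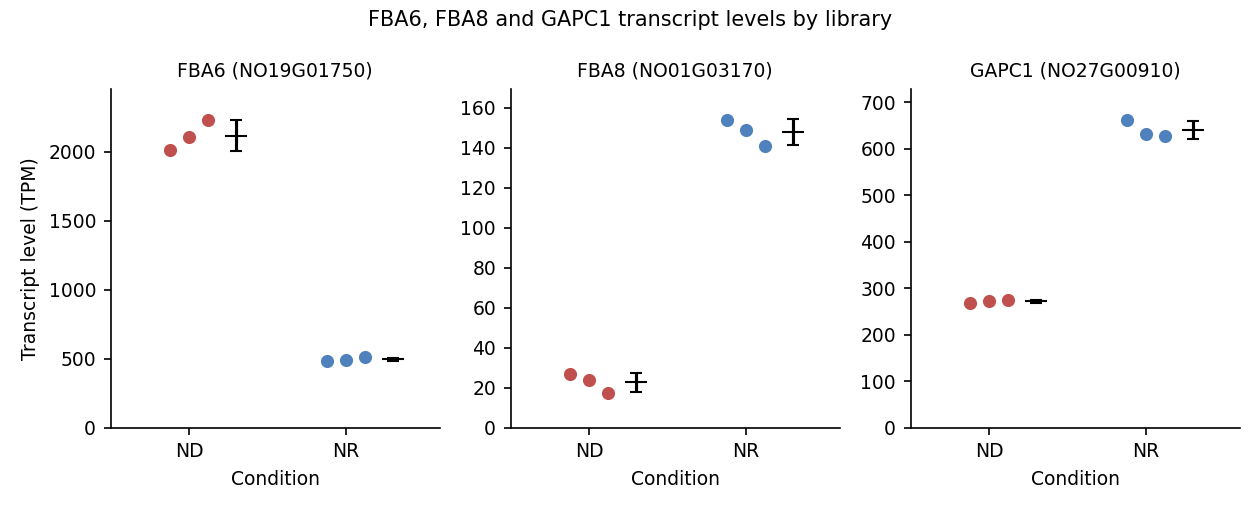
Points are the TPM values of the 3 ND and 3 NR libraries for each gene, and the bar beside them gives the mean and SD (n = 3), with a separate axis from 0 for each gene. FBA6 is high in ND (2009 to 2230 TPM), and FBA8 and GAPC1 are high in NR (141 to 154 and 627 to 662 TPM).

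As a switch between both aldolases, the ratio within a library does not depend on the scaling between libraries. FBA6 was 75.3, 87.3 and 130 times as abundant as FBA8 in ND cultures 1 to 3, and 3.16, 3.31 and 3.62 times in NR cultures 1 to 3. On the log2 scale the ratio was 6.57 ± 0.41 in ND and 1.75 ± 0.10 in NR (SD, n = 3 each), a difference of 4.82. With both FBA8 models summed, FBA6 was 31.0 ± 1.68 times as abundant in ND and 2.70 ± 0.115 times in NR, and the log2 difference was 3.52. FBA6 was the more abundant of the pair in all 6 libraries, so the balance between them shifted but their order did not change. The order did change between FBA6 and GAPC1. FBA6 was 7.78 ± 0.33 times GAPC1 in ND and 0.775 ± 0.0407 times GAPC1 in NR. In ND the levels thus ran FBA6, GAPC1, FBA8, and in NR they ran GAPC1, FBA6, FBA8, with no overlap between neighbours in either order.

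The aldolase that exchanged places with FBA6 was FBA4 (NO12G03140), whose closest described protein is another cytosolic aldolase of Arabidopsis thaliana. FBA4 had 844, 835 and 832 TPM in ND, against 809, 830 and 718 TPM in NR. The most abundant aldolase transcript was FBA6 in every ND library and FBA4 in every NR library. FBA6 was 2.53 ± 0.15 times FBA4 in ND and 0.635 ± 0.0659 times FBA4 in NR. The fitted change of FBA4 was -0.24 ± 0.05 (edgeR adjusted p = 0.000289), but its sign depended on the scaling. With library totals alone the change was 0.08, which did not pass the test (edgeR adjusted p = 0.115).

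Over all 6 aldolase genes, summed levels were 3122 ± 98.1 TPM in ND and 1534 ± 50.0 TPM in NR. FBA6 made up 67.7 ± 1.45% of this sum in ND and 32.4 ± 1.81% in NR. FBA4 made up 26.8 ± 1.02% in ND and 51.2 ± 2.33% in NR. FBA8 NO01G03170 made up 0.73 ± 0.179% in ND and 9.64 ± 0.308% in NR, and with NO01G03180 added, 2.19% in ND and 12.0% in NR. FBA8 NO01G03170 had the lowest level of the 6 in every ND library, while in NR it ranked behind FBA4 and FBA6 alone.

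**Figure D3:**
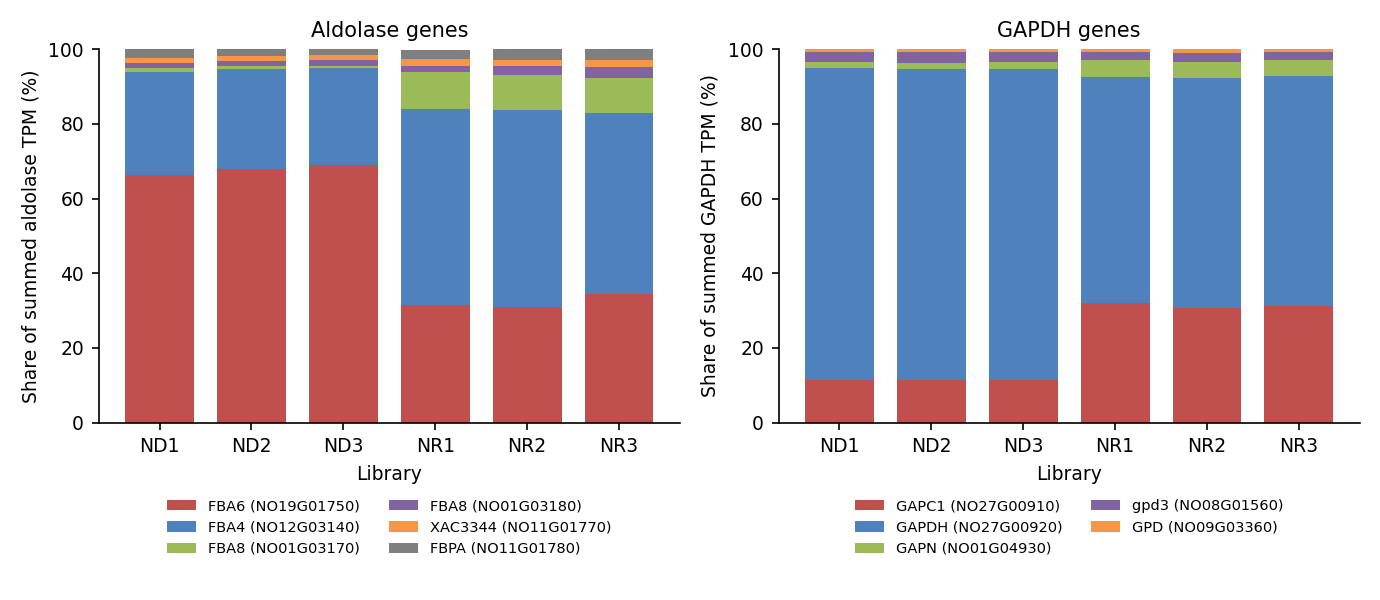
Stacked bars give each gene's share of the summed TPM of its family in every library, with the 6 aldolase genes on the left and the 5 GAPDH genes on the right. FBA6 takes 66.2% to 69.1% of aldolase TPM in ND and 31.1% to 34.4% in NR, and GAPC1 takes 11.3% to 11.5% of GAPDH TPM in ND and 30.8% to 32.0% in NR.

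The remaining aldolase genes were minor transcripts. XAC3344 (NO11G01770) averaged 41.6 ± 1.73 TPM in ND and 26.5 ± 2.34 TPM in NR, and it rose (log2 fold change 0.28 ± 0.10, edgeR adjusted p = 0.012). That call was lost in DESeq2 (adjusted p = 0.0836), without ND culture 3 (edgeR adjusted p = 0.0507) and without NR culture 2 (edgeR adjusted p = 0.0694). FBPA (NO11G01780) averaged 59.6 ± 9.61 TPM in ND and 42.4 ± 2.99 TPM in NR and did not pass the test (0.11 ± 0.12, edgeR adjusted p = 0.422), though it was called higher with library totals alone (0.42, edgeR adjusted p = 0.00299). XAC3344 and FBPA are adjacent by gene ID and share reads, and their summed counts were whole in all 6 libraries. In both conditions the levels of FBPA, NO01G03180 and XAC3344 overlapped between neighbours in the order. Of the 4 aldolase genes besides FBA6 and FBA8, 1 was called higher, 1 lower and 2 did not pass, against 71.2% called over all genes. A further gene, gatY (NO06G04510), has a class II aldolase ortholog code but no matching name. It had 25.6 ± 1.56 TPM in ND and 22.5 ± 0.552 TPM in NR (log2 fold change -0.17 ± 0.10, edgeR adjusted p = 0.135).

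In the GAPDH family the most abundant transcript was NO27G00920, named GAPDH and adjacent to GAPC1 by gene ID. Its level was 1991, 1978 and 1982 TPM in ND, against 1256, 1263 and 1233 TPM in NR. The ND libraries were all above the NR libraries, and the gene rose (log2 fold change 0.31 ± 0.04, edgeR adjusted p = 7.35e-07). The neighbours thus lay on opposite sides, and GAPC1 was 0.137 ± 0.00172 times NO27G00920 in ND and 0.512 ± 0.0141 times in NR. GAPC1 made up 11.4 ± 0.113% of the summed GAPDH level in ND and 31.4 ± 0.582% in NR. NO27G00920 made up 83.4 ± 0.25% in ND and 61.3 ± 0.568% in NR, so it led the family in all 6 libraries. The summed level was 2380 ± 2.11 TPM in ND and 2041 ± 35.5 TPM in NR.

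Another GAPDH gene fell with a log2 fold change close in size to that of GAPC1. GAPN (NO01G04930), annotated as the NADP-dependent enzyme that oxidises glyceraldehyde-3-phosphate without adding phosphate, had 40.1, 43.4 and 44.7 TPM in ND, against 94.4, 85.3 and 84.8 TPM in NR (-1.41 ± 0.07, edgeR adjusted p = 1.78e-13). It was below the NR values in every ND library. The minor genes gpd3 (NO08G01560) and GPD (NO09G03360) did not pass the test. gpd3, whose reads were partly shared, averaged 64.2 ± 1.77 TPM in ND and 46.7 ± 3.64 TPM in NR (0.10 ± 0.07, edgeR adjusted p = 0.24). It was called higher with library totals alone (0.42, edgeR adjusted p = 3.95e-05). GPD averaged 17.3 ± 0.987 TPM in ND and 15.5 ± 2.63 TPM in NR (-0.21 ± 0.13, edgeR adjusted p = 0.151). In ND the order was NO27G00920, GAPC1, gpd3, GAPN and GPD, and in NR it was NO27G00920, GAPC1, GAPN, gpd3 and GPD, without overlap between neighbours. Of the 4 GAPDH genes besides GAPC1, 1 rose, 1 fell and 2 did not pass, against 71.2% called over all genes.

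The steps next to aldolase and GAPDH were described with a list of 16 enzymes and carriers of the Calvin cycle and glycolysis. Without FBA6, FBA8 and GAPC1 it held 50 genes, all tested, of which 17 rose, 23 fell and 10 did not pass, against 35.7% higher and 35.5% lower over all genes. The median log2 fold change was -0.16, against 0.02 over all genes tested. The balance depended on the scaling, since with library totals alone 25 were higher and 18 lower, with a median of 0.16 against 0.34 over all genes. Because genes were matched by wording, the list also holds NO21G00760, described as a methylthioribulose-phosphate dehydratase and enolase-phosphatase, which rose (0.64 ± 0.10, edgeR adjusted p = 1.12e-05). Some of its mutase genes are described only as phosphoglycerate mutase-like.

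Genes of the triosephosphate isomerase, phosphoglycerate kinase and bisphosphatase steps, which lie beside aldolase and GAPDH, were mostly lower under trimmed mean scaling. The triosephosphate isomerase NO08G01800, which interconverts the products of aldolase, had 512 ± 13.7 TPM in ND and 443 ± 19.2 TPM in NR. Its fitted change was -0.17 ± 0.05 (edgeR adjusted p = 0.00553), but it was called higher with library totals alone (0.15, edgeR adjusted p = 0.010). The phosphoglycerate kinase NO06G01060, which takes the product of GAPDH in glycolysis, fell to 640 ± 24.9 TPM in ND, against 859 ± 10.5 TPM in NR (-0.79 ± 0.05, edgeR adjusted p = 3.89e-12). Of the less abundant genes described as chloroplast phosphoglycerate kinases, NO06G04120 fell (-1.31 ± 0.06, edgeR adjusted p = 7.62e-14) and NO20G00840 rose (0.96 ± 0.10, edgeR adjusted p = 4.62e-08). The bisphosphatase NO11G01900 is named as a sedoheptulose-bisphosphatase and matched the fructose-bisphosphatase wording too. These enzymes remove a phosphate from the sugar that aldolase makes, and it fell to 334 ± 14.0 TPM in ND, against 433 ± 26.7 TPM in NR (-0.75 ± 0.05, edgeR adjusted p = 1.51e-10). Of the 7 genes matched as fructose-bisphosphatases, 6 fell and 1 rose, against 35.5% lower and 35.7% higher over all genes. NO16G01890, among those that fell, is likewise named as a sedoheptulose-bisphosphatase.

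In the Calvin cycle, the most abundant gene fell at the transketolase, epimerase, ribose-phosphate isomerase and phosphoribulokinase steps. The plastid isomerase RPI3 (NO08G03720) fell to 102 ± 3.43 TPM in ND, against 233 ± 9.46 TPM in NR (-1.56 ± 0.06, edgeR adjusted p = 1.21e-14). The ribulose-phosphate epimerase rpe (NO11G02910) fell to 184 ± 3.36 TPM in ND, against 380 ± 23.7 TPM in NR (-1.45 ± 0.07). The fitted change was -0.48 ± 0.04 for the transketolase tkt-1 (NO08G02220) and -0.67 ± 0.08 for the phosphoribulokinase PRKA (NO13G02830, shared reads). Their edgeR adjusted p-values were 4.87e-13 for rpe, 9.95e-10 for tkt-1 and 1.00e-07 for PRKA. In contrast, the less abundant epimerase gene NO11G02000 rose to 57.0 ± 9.13 TPM in ND, against 24.5 ± 9.27 TPM in NR (0.79 ± 0.23, edgeR adjusted p = 0.00467). Transketolase and phosphoribulokinase serve to rebuild the acceptor of carbon dioxide.

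In glycolysis the leading genes did not move together. The glucose-6-phosphate isomerase NO01G05010 fell to 106 ± 3.30 TPM in ND, against 222 ± 10.5 TPM in NR (-1.43 ± 0.06, edgeR adjusted p = 3.76e-15). The other gene of that step, PGIC (NO02G03270), rose to 94.9 ± 8.23 TPM in ND, against 46.8 ± 3.99 TPM in NR (0.66 ± 0.08, edgeR adjusted p = 4.6e-07). The enolase PGH1 (NO03G03070) fell to 423 ± 17.6 TPM in ND, against 816 ± 21.0 TPM in NR (-1.32 ± 0.05, edgeR adjusted p = 1.20e-15), and the phosphoglycerate mutase gpmA (NO09G01900) fell as well (-0.81 ± 0.05, edgeR adjusted p = 1.59e-11). In contrast, the phosphofructokinase PFK6 (NO06G03510), which makes the substrate of aldolase, rose to 239 ± 13.4 TPM in ND, against 138 ± 13.7 TPM in NR (0.43 ± 0.06, edgeR adjusted p = 6.65e-06). A less abundant enolase, NO04G01820, is also named PGH1 and rose to 168 ± 5.71 TPM in ND, against 71.0 ± 4.81 TPM in NR (0.88 ± 0.06, edgeR adjusted p = 1.51e-10). The pyruvate kinase pyk (NO06G01630, shared reads) rose (0.16 ± 0.06, edgeR adjusted p = 0.020), but not without ND culture 1 (edgeR adjusted p = 0.0746) or without NR culture 3 (edgeR adjusted p = 0.111). The less abundant pyruvate kinases pykF (NO03G05260, 1.24 ± 0.11, edgeR adjusted p = 5.12e-09) and PYK (NO05G05050, 1.47 ± 0.12, edgeR adjusted p = 1.21e-09) rose more. Of the 5 pyruvate kinase genes, 3 rose, 1 fell and 1 did not pass, against 71.2% called over all genes. The only gene matched by name or description as a triose-phosphate carrier, NO07G03210, is described as a probable sugar phosphate translocator and rose to 67.3 ± 3.90 TPM in ND, against 28.1 ± 4.09 TPM in NR (0.89 ± 0.11, edgeR adjusted p = 2.33e-07). Both further carrier genes, found only by the wording of their ontology or ortholog entries and named GPT1 after a plastid glucose-6-phosphate carrier, fell. NO04G05220, the more abundant, fell to 952 ± 23.9 TPM in ND, against 1349 ± 137 TPM in NR (-0.87 ± 0.06, edgeR adjusted p = 3.52e-11). NO02G01930 fell to 37.6 ± 2.14 TPM in ND, against 88.0 ± 3.49 TPM in NR (-1.59 ± 0.07, edgeR adjusted p = 7.43e-14). PFP-BETA (NO09G03890), a pyrophosphate-dependent phosphofructokinase subunit that the name search also missed, fell to 12.8 ± 1.64 TPM in ND, against 19.4 ± 2.06 TPM in NR (-0.96 ± 0.11, edgeR adjusted p = 2.12e-07).

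**Figure D4:**
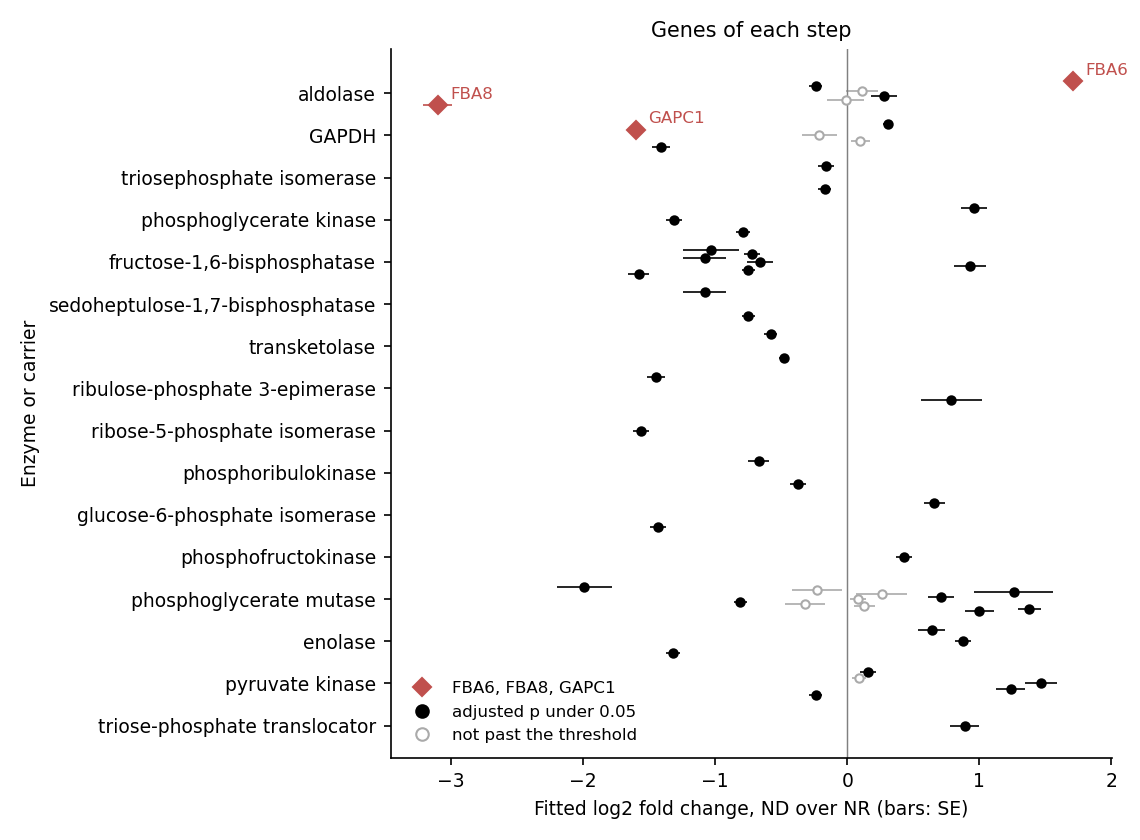
Each point is a gene, placed by its fitted log2 fold change of ND over NR with its SE, in the row of its enzyme or carrier, and genes matched to both bisphosphatases appear in both rows. FBA6 lies at 1.71, to the right of all other genes shown, and FBA8 at -3.10 to the left of all others. Both were chosen by this contrast, so their outer places are no test. Most rows hold genes on both sides of 0.

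Genes of the same step often differed in direction. Of the 13 steps with at least 2 genes besides FBA6, FBA8 and GAPC1, 9 held at least 1 gene called higher and 1 called lower, and 7 did with library totals alone. Over all genes 35.7% were called higher and 35.5% lower. Whether steps of these sizes held both directions more often than other groups of genes was not tested. A change of the most abundant gene was rarer. Among the 13 steps with several genes, FBA6 and FBA4 exchanged the lead at the aldolase step, whereas at the other 12 steps the same gene had the highest mean TPM in both conditions. Aldolase had been chosen because FBA6 and FBA8 differed, so this count describes the list and is no test of it. The result was the same with counts divided by full gene length.

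The search for aldolase also found 4 protein methyltransferases. The LSMT-L genes are described as aldolase-lysine methyltransferases of the chloroplast, and SETD3 and setd3 as actin-histidine methyltransferases. By edgeR's test, 2 of the 4 rose and 2 fell, against 35.7% higher and 35.5% lower over all genes. NO16G00490, annotated as LSMT-L, had 74.5 ± 5.57 TPM in ND and 39.7 ± 8.62 TPM in NR (0.50 ± 0.19, edgeR adjusted p = 0.0221). The other LSMT-L gene, NO02G01160, had 52.6 ± 2.15 TPM in ND and 59.2 ± 5.04 TPM in NR (-0.55 ± 0.09, edgeR adjusted p = 1.63e-05). SETD3 (NO10G04020) changed by 0.44 ± 0.09 (edgeR adjusted p = 0.000233) and setd3 (NO16G02450) by -0.49 ± 0.11 (edgeR adjusted p = 0.00047).

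The genes with the profile most like each member were sought among 3066 described genes with a mean of at least 50 TPM. Likeness was the root mean square difference of log2(TPM + 1) over the 6 libraries after centring, which with 2 conditions mainly finds genes of similar fold change. For FBA6 these were the adenosylhomocysteinase SAHH (NO24G00680, 0.033), the ribose-phosphate pyrophosphokinase prs (NO01G05860, 0.042) and NO12G00790 (0.054), described as a probable uroporphyrinogen-III methyltransferase, an enzyme that leads to sirohaem. SAHH had 370 ± 19.9 TPM in ND and 88.1 ± 1.85 TPM in NR, and prs had 323 ± 4.44 TPM in ND and 73.6 ± 1.95 TPM in NR. For GAPC1 they included ABA4 (NO02G03430, 0.021), named for an Arabidopsis thaliana protein of neoxanthin synthesis, and the thioredoxin trx1 (NO05G01860, 0.033). ABA4 had 221 ± 3.95 TPM in ND and 523 ± 7.26 TPM in NR. For FBA8 the likeness was looser, with a sulfatase (NO16G02990, 0.095), the glucan glucosidase exgA (NO10G02250, 0.157) and the protein kinase trc (NO04G04670, 0.162). The sulfatase had 22.4 ± 2.88 TPM in ND and 143 ± 4.60 TPM in NR.

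The genes next to the members by gene ID, chosen after their values were seen, did not share their changes throughout. Beside FBA6, NO19G01740 had 176 ± 10.2 TPM in ND and 232 ± 16.7 TPM in NR (-0.77 ± 0.06, edgeR adjusted p = 4.80e-10) and NO19G01760 had 7.67 ± 2.35 TPM in ND and 2.36 ± 0.501 TPM in NR (1.30 ± 0.42, edgeR adjusted p = 0.00968), on 4 to 26 counts per library. One ID further, NO19G01730, matched as a fructose-bisphosphatase, had 19.8 ± 5.65 TPM in ND and 31.2 ± 8.61 TPM in NR (-1.03 ± 0.21, edgeR adjusted p = 0.000157). On the other side of FBA8, ycbX (NO01G03160) ranged over 117 to 121 TPM in ND and 114 to 143 TPM in NR, which overlap, and beside GAPC1 the trehalose-phosphate synthase tpsA (NO27G00900) had 120 ± 5.79 TPM in ND and 99.1 ± 2.35 TPM in NR. tpsA did not pass the test (-0.09 ± 0.06, edgeR adjusted p = 0.156), and ycbX fell (-0.51 ± 0.08, edgeR adjusted p = 1.37e-05).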

How the data were processed

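Per the labels' protocols, RNA was extracted with Trizol from 3 ND and 3 NR cultures, and libraries followed Illumina protocols. The submitters' processing notes list edgeR, featureCounts, Picard, STAR, StringTie and Trim Galore, with neither versions nor roles. Which of them estimated the counts, and on which genome build, is not given in the sources used here. Per the file headers, the authors deposited an expected count, a TPM and an FPKM value per gene and library, and separately a table of log2 fold changes with p-values and FDR for 2057 genes. The TPM and FPKM values deposited by the authors are scaled to effective length, which was 266.8 to 271.6 bp below gene length in ND and 249.4 to 255.2 bp in NR. Of the genes, 79.6% to 80.9% had whole counts in a library (within 1e-06).

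Expected counts were rounded and tested across 9329 genes using R 4.3.3 and edgeR 4.0.16 (quasi-likelihood test after filterByExpr and TMM scaling, Benjamini-Hochberg at 0.05). The test was checked on simulated data with as many raised as lowered genes and most genes unchanged, whereas 71.2% were called in the measured data. That check therefore does not bear on the choice of scaling, or on data with so many changed genes. SE is the absolute log2 fold change over the square root of F. Levels between genes were compared in TPM. Genes of the list were matched on name and description, and 4 methyltransferases that match only by substrate were described apart. Besides the 3 members, the text names all other aldolase and GAPDH genes, the gene with the highest mean TPM of each further step and the 3 genes most like each member. Further genes of some steps were named after their values were seen. A gene most like GAPC1 is not reported here. The members and lists were chosen with earlier results of these data known. Chi-square per degree of freedom between libraries of 1 condition was 1.67 to 2.96, above counting error alone, so no library was taken for a second deposit of another. This does not show that the cultures were separate, which rests on the labels. The cultures are described as triplicates. The edgeR p-values set the difference of ND and NR against the spread between cultures, estimated with information shared across genes. Alternatives were RLE, upper-quartile and no scaling, DESeq2 1.42.0, limma 3.58.1 on log2(TPM + 1) and log2(TPM + 0.1), other filters, a replicate block and leaving out each library. No gene ID matched the 160 genes of the reference table, so no coordinates or sequences are given. All per-sample columns were assigned to a library.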

Additional observations from a re-analysis of the deposited data

How the results depend on the processing

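The 15 alternative fits called 5887 to 7235 genes, 39 to 44 genes of the list under 17 settings, and 3 to 5 of the 8 other aldolase and GAPDH genes, all within 1.5 times the values reported. The share of called genes that were higher in ND was 50.2%, 57.6% with upper-quartile factors, 70.3% with library totals alone, 73.4% with limma on log2(TPM + 1) and 73.3% on log2(TPM + 0.1), as the median change moved to between 0.13 and 0.40 under these settings.

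In trimmed mean CPM, the log2 differences of ND and NR were 1.71 for FBA6, -3.10 for FBA8 and -1.60 for GAPC1, in place of 2.09, -2.73 and -1.24 in TPM, by construction of the scaling. With both FBA8 models summed, the FBA8 difference was -1.43, the log2 ratio of FBA6 to FBA8 differed by 3.52, and the FBA8 share was 2.19% in ND and 12.0% in NR. With full length in place of effective length, FBA6 made up 64.3% of aldolase TPM in ND and 29.5% in NR. With the family matched on any annotation column, FBA6 made up 66.1% in ND and FBA8 9.32% in NR. Leaving out each library gave log2 differences of 2.05 to 2.13 for FBA6, -2.86 to -2.54 for FBA8 and -1.25 to -1.21 for GAPC1, and 4.59 to 4.99 for the ratio of FBA6 to FBA8. Without 1 library, the FBA6 share was 67.1% to 68.5% in ND and 31.3% to 33.0% in NR, the FBA8 share 0.655% to 0.828% in ND and 9.46% to 9.75% in NR, and the GAPC1 share 11.4% to 11.5% in ND and 31.1% to 31.6% in NR.

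Of 30 named genes that were refitted, besides the members, 5 reversed sign under at least 1 setting. NO01G03180 (FBA8) reversed with upper-quartile factors (0.10), library totals alone (0.31), limma on either TPM scale (0.37 for both), and without ND culture 1 (0.04), ND culture 2 (0.05), NR culture 2 (0.12) or NR culture 3 (0.09). Leaving out each library gave -0.22 to 0.12 for NO01G03180 and -0.03 to 0.20 for FBPA, which reversed without ND culture 1. With library totals alone the changes were 0.08 for FBA4, 0.11 for GPD and 0.15 for the triosephosphate isomerase NO08G01800. With limma on both TPM scales they were 0.09 for FBA4, 0.15 and 0.16 for GPD and 0.21 for NO08G01800. The cause of the reversals without a library was not tested.

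Same-numbered ND and NR libraries deviated together weakly, at correlations of 0.04, 0.09 and 0.11, each library correlating best with its own number. This is a hint from the data and not the design. With a replicate block, 6590 genes were called, with 40 genes of the list and 4 of the other aldolase and GAPDH genes, and no call changed among the 30 named genes fitted with the block. Among FBA6, FBA8 and GAPC1, FBA8 had the fewest counts, with 88.53 to 108.1 estimated counts per ND library.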
